A study of Homo sapiens and Mus musculus with 22 samples.

Results

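BIX-01294 (BIX) was compared with mock treatment in L929 cells of the cGAS wild type (WT), with 1 RNA sequencing library on each side. L929 is an established line of mouse fibroblasts, and BIX was given at 10 µM for 12 h. Genes were taken into the comparison when their FPKM (fragments scaled to transcript length and library size) was at least 1 in 1 of the 2 libraries, which held for 11078 of the 22727 genes kept from a table of 23849 symbols. The series holds 22 samples, of which 14 are RNA samples and 8 are chromatin samples or their inputs, from U2OS and L929 cells. The 4 L929 libraries are cGAS WT mock, cGAS WT BIX, cGAS knockout (KO) mock and cGAS KO BIX. The treatment note in the labels gives BIX to all cells, while the sample names call part of them mock. The names were followed here, and nothing in the labels tells what was added to the mock cultures. With 1 library per group there is no replicate error, so no test was made, no difference below has a replicate check, and each statement compares libraries, not conditions. The labels do not say whether the cGAS WT and KO lines are single clones or how the knockout was made.

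BIX is an inhibitor of EHMT1 and EHMT2 (GLP and G9a), the enzymes that mono- and dimethylate lysine 9 of histone H3, a mark of silenced chromatin. cGAS, whose mouse gene is listed as Mb21d1, binds DNA in the cytosol and makes a cyclic dinucleotide that activates STING (Tmem173). STING then recruits the kinase TBK1 to the transcription factor IRF3, which turns on type I interferon genes and an early set of antiviral genes, and secreted interferon turns on a wider set through a complex that holds STAT2 and IRF9. NF-kappaB, a second arm of the same pathway, drives inflammatory cytokines and chemokines.

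Both libraries carried abundant RNA of fibroblast genes. The 12 fibroblast markers summed to 5895 FPKM in mock and 4643 with BIX, almost all of it from S100a4 (3953 and 3199 FPKM (-0.30)) and Vim (1756 and 1308 FPKM (-0.42)); the figure in brackets here and below is the log2 ratio of BIX to mock on the FPKM + 1 scale, which understates the ratio of genes with low values. Thy1, Dcn and Lum, markers of many fibroblasts, were listed at 0 in both libraries, so the label of the line is only partly matched by its markers. Mb21d1 was at 2.82 FPKM in WT mock, 3.47 in WT BIX, 1.19 in KO mock and 4.41 in KO BIX, so a value for the whole gene does not separate the genotypes. The deposited tables hold no read counts, so the depth is unknown and no counting interval can be given. From the steps between low FPKM values, the reads of the WT BIX library were 0.747 of those of WT mock, with 22.5% of 1155 low genes in a single window of 1% around that ratio. In spite of fewer reads, 9424 entries were listed at 0 with BIX against 10063 in mock. In bulk RNA, fewer cells of a type and less RNA per cell cannot be told apart, and FPKM says nothing of the amount of RNA per cell.

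At 2-fold or more (a log2 ratio of at least 1), 820 genes (7.4%) were higher with BIX and 683 (6.17%) were lower. Differences of 4-fold or more were found in 143 genes that were higher and 23 that were lower, and of 8-fold or more in 43 and 1. The median over all genes counted was -0.04, with 5235 genes above 0 and 5843 below 0. Of the 820, 263 had passed the FPKM minimum through the BIX library alone, so their direction was fixed in advance, though not its size. In all, 523 genes passed that way. Of the 683, 64 had passed through the mock library alone. Among the 901 genes above 100 FPKM in mock, 26 (2.89%) were 2-fold higher and 28 (3.11%) were 2-fold lower. Just inside the FPKM minimum lay Ifit1bl2 (0.0277 and 1.0 FPKM (0.96)), Fbln7 (1.0 and 0.216 FPKM (-0.72)) and Klhl41 (0.149 and 1.0 FPKM (0.80)), and 109 genes had a higher value between 1 and 1.1 FPKM against 116 between 0.9 and 1.

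**Figure D1:**
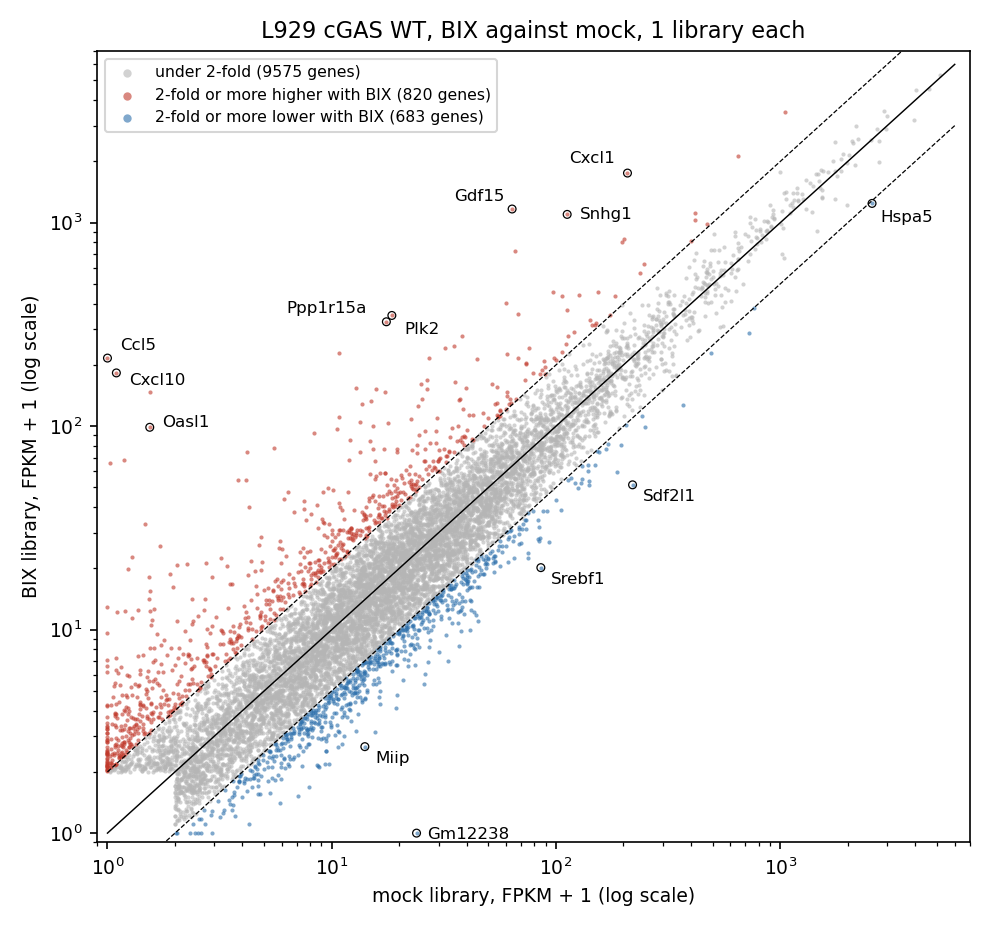
FPKM + 1 of each of the 11078 genes in the cGAS WT mock library (x axis, log scale) and the cGAS WT BIX library (y axis, log scale), 1 point per gene. The solid line marks equal values and the dashed lines 2-fold. Of the genes, 820 lie above and 683 below the dashed lines. Ccl5, Cxcl10 and Oasl1 lie near the left edge, and Gm12238 is 1 of 8 genes on the floor at 0 with BIX.

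Outside the interferon genes, the genes furthest apart had roles of several kinds. Pim1, a survival kinase, was at 3.14 FPKM in mock and at 53.1 with BIX (3.71). Ptpn22, a phosphatase of immune receptor signalling, was at 0.892 FPKM in mock and at 17.7 with BIX (3.30), and Fzd1, a WNT receptor, was listed at 0 in mock and at 11.9 FPKM with BIX. Chka, choline kinase, was at 16.8 FPKM in mock and at 102 with BIX (2.54), and Sgms2, a sphingomyelin synthase, at 5.13 FPKM in mock and at 42.7 with BIX (2.83). These 2 enzymes of membrane lipid synthesis were chosen for mention after their values were seen, as were Ptpn22 and the next 2 genes. Serpinb9e and Serpinb9f, neighbouring copies of a protease inhibitor family, were at 12.4 and 104 FPKM (2.97) and 3.82 and 27.6 FPKM (2.57). Their reads may be shared, so their separate levels are uncertain. Baat, a liver enzyme that conjugates bile acids, was at 0.0997 FPKM in mock and at 11.2 with BIX (3.47), and Cd79a, a part of the B cell receptor, at 0.537 FPKM in mock and at 17 with BIX (3.55). Cd3g, a defining marker of T cells, was listed at 0 in both libraries. Sprr1a, a gene of the cornified envelope of the skin, was at 0.722 FPKM in mock and at 24.9 with BIX (3.91), and Gm5176 had the largest ratio among unnamed predicted genes, at 0.466 FPKM in mock and at 32.2 with BIX (4.50).

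The genes furthest lower were mostly of moderate level. Gm12238, a predicted gene, was at 22.9 FPKM in mock and listed at 0 with BIX, and it was listed at 0 in both KO libraries too. Miip, an inhibitor of cell migration, was at 13.1 FPKM in mock and at 1.66 with BIX (-2.40), Mxd3, a partner of MAX, at 25 FPKM in mock and at 5.05 with BIX (-2.10), and Emilin1, an elastic fibre protein, at 36.1 FPKM in mock and at 7.33 with BIX (-2.15). Pdk2, a kinase that holds back pyruvate dehydrogenase, was at 18.6 FPKM in mock and at 3.79 with BIX (-2.03), and Chst1, a keratan sulphate sulphotransferase, at 43.9 FPKM in mock and at 10.00 with BIX (-2.03). Lfng, which modifies Notch receptors, was at 40.5 FPKM in mock and at 8.97 with BIX (-2.06). Abca1, the cholesterol exporter, was at 7.78 FPKM in mock and at 1.11 with BIX (-2.05). Each of Miip, Mxd3, Emilin1, Pdk2, Chst1 and Abca1 was also lower in the KO pair, with log2 ratios of -2.22, -1.73, -2.0, -2.05, -2.01 and -1.39. Lfng was lower there by less than 2-fold (-0.68).

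Across 49 gene lists the libraries differed most in lists of signalling, antiviral and cell division genes. Counts of list genes 2-fold apart in WT are to be read beside the shares over all genes counted, 7.4% higher and 6.17% lower. Over the genes counted, immediate early genes had the highest median among lists of more than 5 genes counted (1.64), followed by interferon-stimulated genes (1.10), growth factors (1.02) and NF-kappaB genes (0.94). Over all entries of these lists, with no FPKM minimum, the medians were 1.42, 0.73, 0.28 and 0.56, with 7 of 17 growth factor genes not counted. Mitosis (-1.06), ER folding (-0.83) and DNA replication (-0.71) had the lowest medians. The large housekeeping lists lay close to the median of all genes: 79 cytosolic ribosomal protein genes had a median of 0.15 with none 2-fold apart, 36 proteasome subunits a median of -0.02, and 89 genes of the respiratory chain and ATP synthase a median of -0.19.

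**Figure D2:**
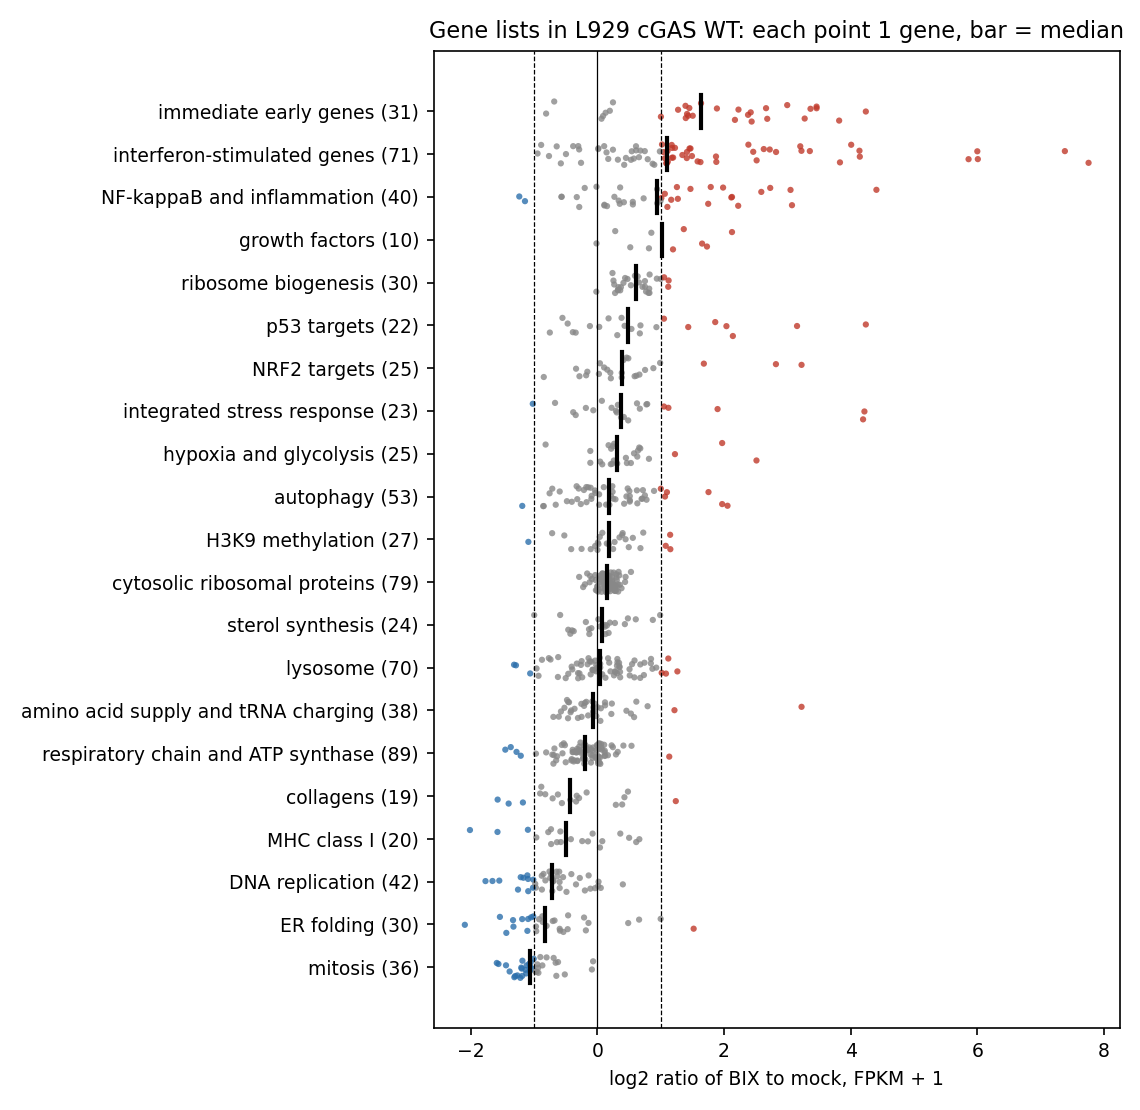
Log2 ratio of BIX to mock (x axis) for each counted gene of 21 lists in cGAS WT (rows, number of genes in brackets), with a black bar at the median; dashed lines mark 2-fold. Interferon-stimulated genes reach furthest to the right, and the points of the mitosis list all lie below 0.

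Interferon-stimulated genes were higher with BIX in large part. Of 93 listed genes, 71 were counted, 40 were 2-fold higher and none was 2-fold lower, against 7.4% of all genes counted. Of the 71, 27 passed the FPKM minimum through BIX alone. Over all 93 genes, with no minimum, the median was 0.73. The median of 0 over all genes of the table is not a like comparison. Of the table's entries, 10063 were listed at 0 in mock and 9424 with BIX, and such genes weigh on it. The ligands themselves were at low levels. Ifna4, an interferon alpha gene, was listed at 0 in mock and was at 6.07 FPKM with BIX, and Ifna1 was listed at 0 and was at 1.50. The other 12 of 14 interferon alpha genes did not reach 1 FPKM in either library, and these genes are near-identical copies, so their separate values are uncertain. Ifnb1, interferon beta, was listed at 0 in mock and was at 0.597 with BIX, under the minimum. The receptor genes went the other way, with Ifnar1 at 11.6 FPKM in mock and at 5.56 with BIX (-0.94) and Ifnar2 at 31.1 FPKM in mock and at 25.1 with BIX (-0.30), both short of 2-fold.

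Of the factors of interferon signalling, Irf9 was at 7.0 FPKM in mock and at 20.3 with BIX (1.41) and Stat2 at 3.62 FPKM in mock and at 8.88 with BIX (1.10). Irf1 and Irf7 were at 5.17 and 8.43 FPKM (0.61) and 1.01 and 1.94 FPKM (0.54). The RNA sensor genes that interferon itself turns on were higher: Ifih1 (MDA5) was at 0.153 FPKM in mock and at 5.59 with BIX (2.51), Ddx58 (RIG-I) at 2.51 FPKM in mock and at 8.90 with BIX (1.49) and Dhx58 (LGP2) at 1.50 FPKM in mock and at 4.39 with BIX (1.11). Zbp1, a sensor of Z-form nucleic acid, was at 0.152 FPKM in mock and at 1.37 with BIX (1.04).

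Of the antiviral effectors, 17 of the 24 counted were 2-fold higher, against 7.4% of all genes. However, 13 of the 24 had passed the FPKM minimum through BIX alone, so their ratios had to be above 0. Over all 27, with no minimum, the median was 1.63. Rsad2 (viperin) was at 0.0244 FPKM in mock and at 64.9 with BIX (6.01), Oasl1, a regulator of Irf7 translation, at 0.544 FPKM in mock and at 97.7 with BIX (6.0), and Ifit1, which binds foreign RNA ends, at 0.179 FPKM in mock and at 67.5 with BIX (5.86). All 3 were under the FPKM minimum in mock and among the largest ratios of the whole comparison. Isg15, a ubiquitin-like modifier, was at 3.21 FPKM in mock and at 73.4 with BIX (4.14), and Usp18, which removes it, at 0.554 FPKM in mock and at 7.11 with BIX (2.38), while Ube2l6, its conjugating enzyme, was at 49.2 FPKM in mock and at 32.7 with BIX (-0.58). Mx2 was at 0.118 FPKM in mock and at 5.16 with BIX (2.46), and Mx1, the better known of these antiviral GTPases, was listed at 0 in mock and was at 1.16 with BIX. The GTPases of the IRG family Irgm1, Irgm2 and Igtp were at 5.25 and 21.9 FPKM (1.87), 0.343 and 2.41 FPKM (1.34) and 0.717 and 2.88 FPKM (1.18). Of the GBP family, Gbp3 was counted, at 0.182 FPKM in mock and at 2.24 with BIX (1.46), and Gbp2, Gbp4, Gbp5, Gbp6 and Gbp7 stayed under 1 FPKM in both libraries.

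A further group was already abundant in mock. Ifitm3 and Ifitm2, membrane proteins that block virus entry, were at 417 and 560.3 FPKM (0.42) and 454 and 502 FPKM (0.14), near-level. Bst2 (tetherin) was at 67 FPKM in mock and at 54.7 with BIX (-0.29), Lgals3bp at 137 FPKM in mock and at 73.4 with BIX (-0.89), short of 2-fold lower, and Adar, which edits double-stranded RNA, at 17.7 FPKM in mock and at 24.6 with BIX (0.45). The members of the Ifi200 family Ifi202b, Ifi204 and Mnda were 2-fold higher, at 46.7 and 99.1 FPKM (1.07), 28.6 and 66.2 FPKM (1.18) and 11.1 and 27.2 FPKM (1.23). Copies within the Oas1, Apol9, Ifit3 and Ifi200 families share sequence, and their separate values are uncertain.

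**Figure D3:**
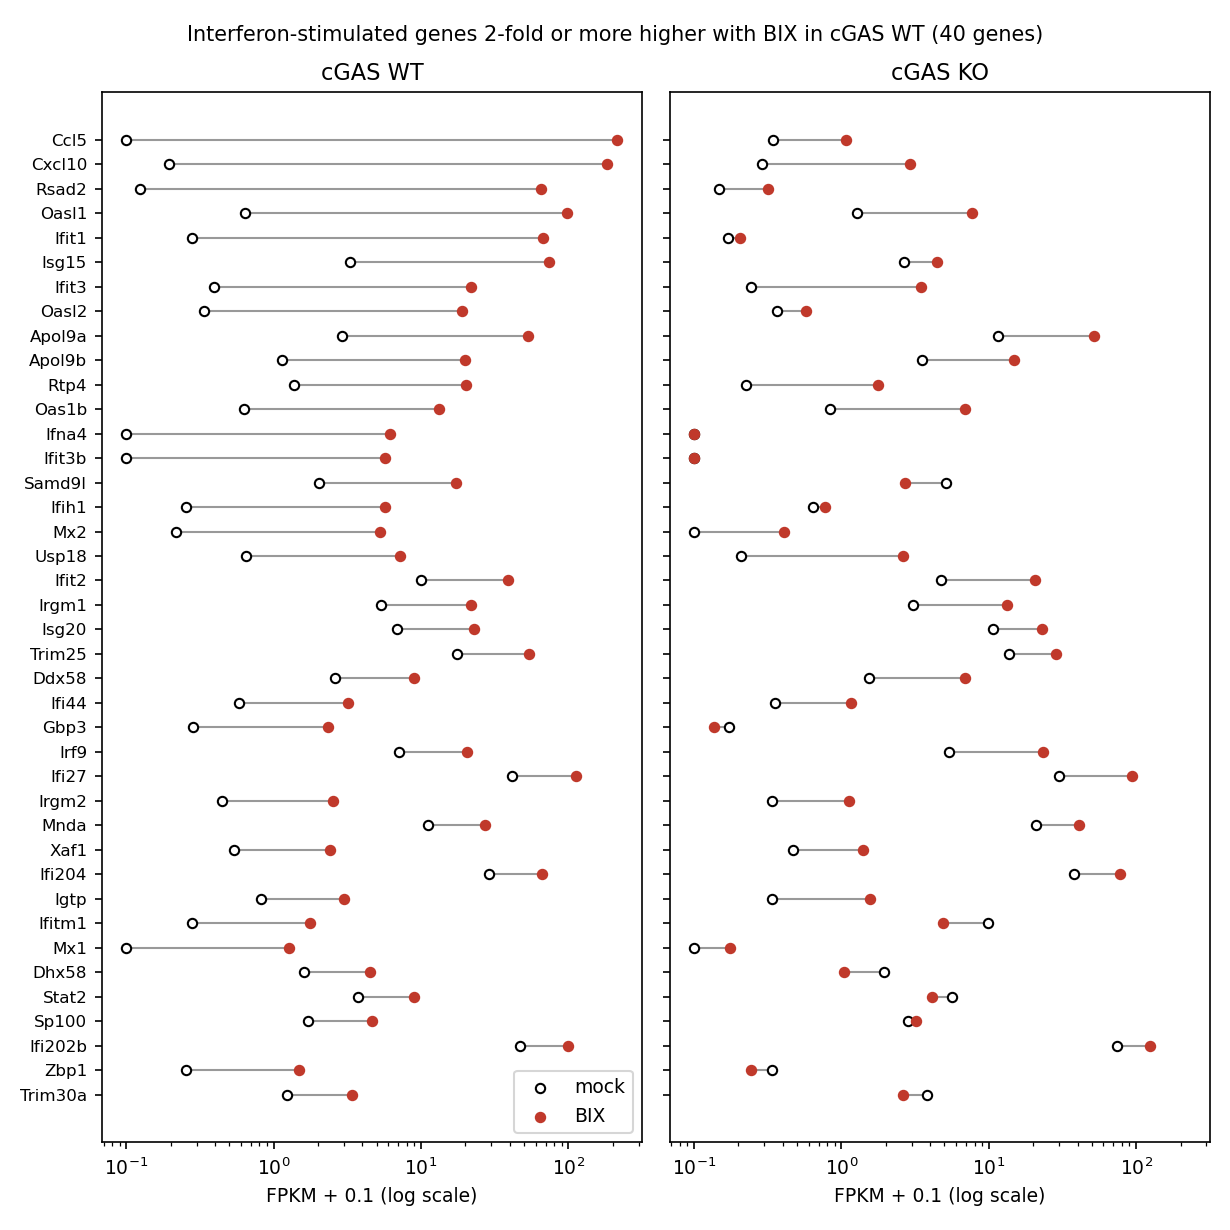
FPKM + 0.1 (x axis, log scale) of the 40 interferon-stimulated genes that were 2-fold or more higher with BIX in cGAS WT, in the mock library (open points) and the BIX library (filled points) of cGAS WT (left) and cGAS KO (right), 1 library each. Rows are ordered by the WT ratio; in the right panel most of the bars at the top of the list are short.

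The genes of the sensing pathway upstream of interferon were near-level. Of 21 counted, 1 was 2-fold higher and 2 were lower, against 7.4% and 6.17% of all genes, with a median of -0.03. Tmem173 (STING) was at 13.7 FPKM in mock and at 13.7 with BIX (0.0), Tbk1 at 23.7 FPKM in mock and at 30.8 with BIX (0.37) and Irf3 at 19.9 FPKM in mock and at 13.5 with BIX (-0.53). The joined entry Atrip,Trex1, which includes the DNase that clears cytosolic DNA, was at 13 FPKM in mock and at 14.8 with BIX (0.18). Of the RNA arm, Mavs, the adaptor on mitochondria, was at 24.6 FPKM in mock and at 10.1 with BIX (-1.21), and Trim25, which helps activate RIG-I, was at 17.3 FPKM in mock and at 54 with BIX (1.58). Rnaseh2c, a subunit of the RNase that removes RNA from DNA, was at 38.9 FPKM in mock and at 17.6 with BIX (-1.10).

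MHC class I genes, many of which respond to interferon, were not higher as a list. None of 20 was 2-fold higher and 3 were lower, against 7.4% and 6.17% of all genes, with a median of -0.50. B2m, the light chain, was at 1753 FPKM in mock and at 2483 with BIX (0.50) and H2-K1 at 189.6 FPKM in mock and at 200.2 with BIX (0.08). The peptide transporter genes Tap1 and Tap2 were at 14.5 and 6.26 FPKM (-1.10) and 37.6 and 18.8 FPKM (-0.96), and Psmb9, an immunoproteasome subunit, was at 4.78 FPKM in mock and at 0.939 with BIX (-1.58). H2-Q1 was at 11.8 FPKM in mock and at 2.17 with BIX (-2.01), a value that may share reads with its near-identical neighbours. Tap1, Psmb8 and Psmb9 were also lower in the KO pair (-1.33, -1.24 and -0.83).

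Of 40 counted NF-kappaB and inflammatory genes, 18 were 2-fold higher and 2 were lower, against 7.4% and 6.17% of all genes. Of the 40, 7 had passed the FPKM minimum through BIX alone, and over all 49 listed genes the median was 0.56 against 0.94 over those counted. Of 8 counted inhibitors of the pathway, 4 were 2-fold higher and 2 were below 0, Tnip1 (-0.56) and Nfkbie (-0.20). Among the 4, Tnfaip3 (A20) was at 2.41 FPKM in mock and at 19.5 with BIX (2.59), Nfkbia at 72.5 FPKM in mock and at 203 with BIX (1.47) and Nfkbib at 27.8 FPKM in mock and at 61.1 with BIX (1.11). Of the subunits, Relb was at 6.47 FPKM in mock and at 24.1 with BIX (1.75) and Rela at 47 FPKM in mock and at 91.5 with BIX (0.95). The cytokine genes started low: Tnf was at 0.957 FPKM in mock and at 15.2 with BIX (3.05), Il6 at 4.85 FPKM in mock and at 26.3 with BIX (2.22), Lif at 3.25 FPKM in mock and at 17.5 with BIX (2.13) and Csf2 (GM-CSF) at 0.206 FPKM in mock and at 3.17 with BIX (1.79), whereas Csf1, the most abundant, was level at 789.8 FPKM in mock and at 783 with BIX (-0.01). Il1b was listed at 0 in both libraries. Ptgs2 (COX-2), the inducible prostaglandin synthase, was at 0.0889 FPKM in mock and at 6.22 with BIX (2.73), and Vcam1, an adhesion molecule, at 0.246 FPKM in mock and at 1.80 with BIX (1.17). The secreted acute phase proteins Lcn2 and Saa3 were not higher, at 177 and 145 FPKM (-0.29) and 2.76 and 2.0 FPKM (-0.32).

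Some chemokine ligand genes of several attractant classes were higher with BIX. A group of all Ccl and Cxcl genes, chosen after values were seen, had 15 of 33 counted. Of these, 13 were 2-fold higher, against 7.4% of all genes. The other 18 did not reach the minimum, 11 of them listed at 0 in both libraries. Of the 15, 6 had passed the FPKM minimum through BIX alone, and over all 33 the median was 0.41 against 1.99 over those counted. The neutrophil attractants Cxcl1 and Cxcl2 were at 207 and 1753 FPKM (3.07) and 9.75 and 227 FPKM (4.41). The attractants of monocytes and T cells Ccl3, Ccl4 and Ccl5 were at 11.1, 0.550 and 0 FPKM in mock and 84.8, 147 and 215 with BIX. Ccl2 and Ccl7, already abundant, were at 469 and 982 FPKM (1.07) and 235 and 564 FPKM (1.26). Ccl9 was near-level, at 14.8 FPKM in mock and at 12.8 with BIX (-0.20), and Cx3cl1 (fractalkine), which does not carry either name, was lower, at 12.5 FPKM in mock and at 4.74 with BIX (-1.23). The 8 macrophage and leukocyte markers summed to 43.1 FPKM in mock and 82.5 with BIX. Nearly all of that was Cd68, a lysosomal protein, at 41.2 FPKM in mock and at 80.3 with BIX (0.95), and the sum was 11.0 in KO mock and 34.3 in KO BIX. Adgre1 and Fcgr3 were listed at 0 in all 4 libraries, and Ptprc, the common leukocyte antigen, was listed at 0 in mock and was at 0.0472 with BIX.

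Immediate early genes, which growth factors and stress turn on without new protein, were higher in 24 of 31 counted, and none was 2-fold lower. Over all genes counted, 7.4% were higher and 6.17% lower. All 9 counted genes of the AP-1 family were at least 2-fold higher, Jund just so, at 41.6 FPKM in mock and at 84.4 with BIX (1.0), and it was lower in the KO pair (-0.56). Fos and Fosb were the 2 that passed the FPKM minimum through BIX alone. Fos was at 0.552 FPKM in mock and at 11.4 with BIX (3.0), Fosb at 0.367 FPKM in mock and at 6.40 with BIX (2.44), Jun at 24 FPKM in mock and at 159.8 with BIX (2.68), Junb at 24.3 FPKM in mock and at 135 with BIX (2.42) and Maff at 7.37 FPKM in mock and at 91.2 with BIX (3.46). Egr1 was at 9.81 FPKM in mock and at 110.4 with BIX (3.37), Klf6 at 25.5 FPKM in mock and at 167 with BIX (2.66) and Myc, the growth regulator, at 96.4 FPKM in mock and at 456 with BIX (2.23). The list was not uniform, since Srf, which drives many of these genes, was at 33 FPKM in mock and at 36.2 with BIX (0.13), Arc at 20.2 FPKM in mock and at 21.2 with BIX (0.07) and Nr4a2 at 4.46 FPKM in mock and at 2.11 with BIX (-0.81). Plk2, a kinase of centriole duplication and stress that is also a p53 target, was at 17.5 FPKM in mock and at 349 with BIX (4.24), and Zfp36, which destabilises cytokine mRNA, was at 8.11 FPKM in mock and at 46.4 with BIX (2.38).

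The inhibitors of MAP kinase signalling were higher in 5 of 15 counted, against 7.4% of all genes. Dusp1, a phosphatase of JNK and p38, was at 12.6 FPKM in mock and at 128 with BIX (3.25), Dusp5 at 14.6 FPKM in mock and at 66.1 with BIX (2.10), Dusp10 at 3.55 FPKM in mock and at 18.5 with BIX (2.10) and Dusp16 at 6.21 FPKM in mock and at 23 with BIX (1.73). The phosphatase genes Dusp4 and Dusp6 were at 26.6 and 42.3 FPKM (0.65) and 25.5 and 46.2 FPKM (0.83), under 2-fold. Of the adaptors, Spry2 was at 16.2 FPKM in mock and at 58 with BIX (1.78) and Spred1 at 14.9 FPKM in mock and at 15.9 with BIX (0.09).

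Genes of secreted growth signals were higher in 5 of 10 counted, against 7.4% of all genes. Hbegf, a ligand of the EGF receptor, was at 8.27 FPKM in mock and at 28.2 with BIX (1.65), Bdnf at 1.95 FPKM in mock and at 6.59 with BIX (1.36) and Kitl (stem cell factor) at 15.2 FPKM in mock and at 36.1 with BIX (1.19). In the TGF-beta and BMP list the directions were mixed, with 7 of 26 higher and 4 lower, against 7.4% and 6.17% of all genes. Of the ligands, Tgfb2 was at 0.0775 FPKM in mock and at 2.39 with BIX (1.65), but Tgfb1 and Tgfb3 were at 62.7 and 37.5 FPKM (-0.73) and 6.76 and 2.65 FPKM (-1.09). The inhibitory SMAD genes split too: Smad7 was at 3.76 FPKM in mock and at 25.1 with BIX (2.45) and Smad6 at 2.78 FPKM in mock and at 0.676 with BIX (-1.17). Among targets, Skil, a repressor of SMADs, was at 3.99 FPKM in mock and at 14.6 with BIX (1.65), while Id1, a target of BMP signals, was at 104 FPKM in mock and at 37.6 with BIX (-1.45). The Id genes lay apart in the KO pair, with ratios of 0.35, 1.88 and 1.62 for Id1, Id2 and Id3 against -1.45, 0.15 and -0.41 in WT.

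The integrated stress response slows translation through phosphorylated eIF2 and raises ATF4. Of its 23 counted genes 5 were higher and 1 was lower, against 7.4% and 6.17% of all genes, with a median of 0.37. Ppp1r15a (GADD34), which brings the phosphatase to eIF2, was at 16.5 FPKM in mock and at 325 with BIX (4.22), Ddit3 (CHOP) at 59.5 FPKM in mock and at 225 with BIX (1.90) and Gdf15, a secreted stress signal, at 62.7 FPKM in mock and at 1167 with BIX (4.20). These 3 genes stood well above the rest of the list, since Atf4 was at 507 FPKM in mock and at 875 with BIX (0.79), Trib3 at 44 FPKM in mock and at 33.5 with BIX (-0.38), Chac1 at 8.49 FPKM in mock and at 10.1 with BIX (0.22) and Sesn2 at 26.5 FPKM in mock and at 20.7 with BIX (-0.34). Atf3 was under 1 FPKM in both libraries. The amino acid genes that ATF4 controls lay near 0 as a list, with a median of -0.07. Of 38 counted, 2 were higher and none was lower, against 7.4% and 6.17% of all genes. The 11 counted synthesis genes leaned lower, with 10 below 0, 1 above and a median of -0.42. Their KO median was -0.67. Transporters had a median of 0.22 and tRNA synthetases a median of -0.04. Asns, asparagine synthetase, was at 196 FPKM in mock and at 173 with BIX (-0.17), Psat1 at 292 FPKM in mock and at 214 with BIX (-0.45) and Phgdh, which opens serine synthesis, at 293 FPKM in mock and at 212 with BIX (-0.46). The 2 transporters that were higher were Slc7a11, which imports cystine, at 3.28 FPKM in mock and at 39 with BIX (3.22), and Slc38a2, which imports small neutral amino acids, at 141 FPKM in mock and at 329.7 with BIX (1.22). All 18 tRNA synthetase genes were under 2-fold in either direction, from Mars at 60.3 FPKM in mock and at 36.9 with BIX (-0.69) to Rars at 131 FPKM in mock and at 201 with BIX (0.62).

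The genes of protein folding in the endoplasmic reticulum (ER) were lower. Of 30 counted, 26 were below 0, 10 were 2-fold lower and 1 was higher, against 6.17% and 7.4% of all genes. Hspa5 (BiP), the main ER chaperone and an abundant mRNA in mock, was at 2566 FPKM in mock and at 1243 with BIX (-1.05). Hsp90b1 (GRP94) was at 1988 FPKM in mock and at 1220.2 with BIX (-0.70) and Calr, calreticulin, at 1454 FPKM in mock and at 909.8 with BIX (-0.68). Of the other folding factors, Sdf2l1 was at 219 FPKM in mock and at 50.5 with BIX (-2.09), Creld2 at 367 FPKM in mock and at 126 with BIX (-1.54), Manf at 248 FPKM in mock and at 98.3 with BIX (-1.32) and Dnajc3 at 35.8 FPKM in mock and at 12.6 with BIX (-1.44), while Dnajb11 and Hyou1 were at 218 and 119 FPKM (-0.87) and 246 and 141 FPKM (-0.80), short of 2-fold. Of the enzymes that form disulphide bonds, Pdia6 was at 764 FPKM in mock and at 379 with BIX (-1.01) and the joined entry Mir704,Pdia4 at 724 FPKM in mock and at 287 with BIX (-1.33), whereas Ero1l was at 76.6 FPKM in mock and at 108 with BIX (0.49). The parts of ER-associated degradation Syvn1 (HRD1) and Sel1l were at 47 and 20.1 FPKM (-1.19) and 51 and 23.4 FPKM (-1.09).

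The sensors of unfolded protein differed among themselves. Ern1 (IRE1) was at 5.08 FPKM in mock and at 16.4 with BIX (1.52), Atf6 at 24.5 FPKM in mock and at 39.2 with BIX (0.66) and Eif2ak3 (PERK) at 12.8 FPKM in mock and at 11.2 with BIX (-0.18), while Xbp1, the factor made through IRE1, was at 94.2 FPKM in mock and at 49.3 with BIX (-0.92). Dnajb9, a cochaperone of BiP, was the chaperone with the highest ratio, at 35.7 FPKM in mock and at 72.5 with BIX (1.0). The WT mock library held more of these mRNAs than KO mock: Hspa5 was at 752 FPKM, Creld2 at 119 and Sdf2l1 at 58.4 in KO mock, and at 565, 77.4 and 31.1 in KO BIX. The list's median was -0.38 in the KO pair, with 4 of 30 genes 2-fold lower and 2 higher, against -0.83 in the WT pair.

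**Figure D4:**
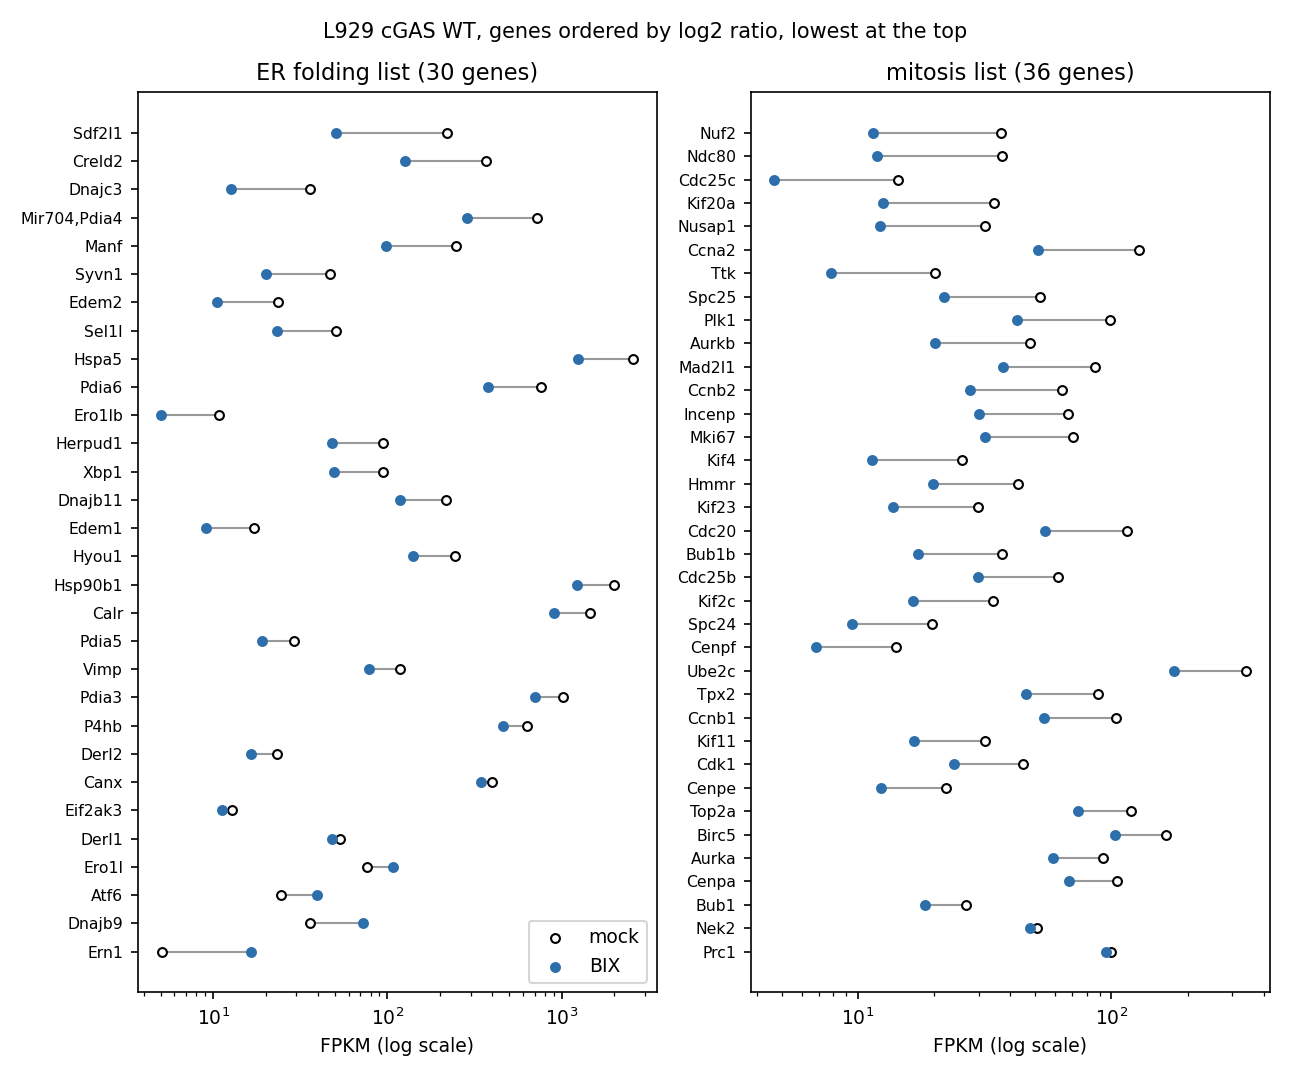
FPKM (x axis, log scale) of the 30 counted ER folding genes (left) and the 36 mitosis genes (right) in the cGAS WT mock library (open points) and BIX library (filled points), 1 library each, with the lowest log2 ratio at the top. BIX values lie left of mock for 26 of 30 ER folding genes and for all 36 mitosis genes.

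Other stress lists held a few genes that were higher. Of 20 cytosolic heat shock genes 3 were higher and none was lower, against 7.4% and 6.17% of all genes. Hspb8, a small chaperone, was at 112 FPKM in mock and at 276 with BIX (1.30), and the inducible HSP70 genes Hspa1a and Hspa1b, which are near-identical and may share reads, were at 0.370 and 2.12 FPKM (1.19) and 4.86 and 13.6 FPKM (1.32). Hspa8, the constitutive member, was level, at 1865 FPKM in mock and at 1799.6 with BIX (-0.05). Of 25 NRF2 targets 3 were higher, with Hmox1, which degrades haem, at 34.3 FPKM in mock and at 248 with BIX (2.82) and Txnrd1, thioredoxin reductase, at 74.9 FPKM in mock and at 242 with BIX (1.68) beside Slc7a11. Nqo1, a classical target, was not, at 10.1 FPKM in mock and at 8.16 with BIX (-0.28). In the KO pair 2 of the 25 were higher and 1 was lower, against 13% and 9.87% of all genes there. Of 5 genes of zinc and metal handling 3 were higher: Mt1 and Mt2, the metallothioneins, were at 1045 and 3506 FPKM (1.75) and 645 and 2116 FPKM (1.71), and Slc30a1, a zinc exporter, was at 22.6 FPKM in mock and at 50.5 with BIX (1.13). Of 7 counted iron genes none was 2-fold apart, with Tfrc, the transferrin receptor, at 71.2 FPKM in mock and at 141 with BIX (0.98) and Fth1, ferritin heavy chain, at 5171 FPKM in mock and at 5319.7 with BIX (0.04). All 8 genes of mitochondrial stress were within 2-fold.

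Genes that make ribosomes were higher by less than 2-fold as a rule. Of 30, 29 were above 0 with a median of 0.62, and 3 were 2-fold higher, against 7.4% of all genes. Nop58 and Nop56, core proteins of box C/D small nucleolar particles, were at 144 and 315 FPKM (1.12) and 196 and 393 FPKM (1.0), the latter just under 2-fold. Gnl3 (nucleostemin) was at 88.2 FPKM in mock and at 194 with BIX (1.13) and Npm1 (nucleophosmin) at 1001 FPKM in mock and at 1767 with BIX (0.82). Small nucleolar RNA host genes, a group chosen after values were seen, had 4 of 14 counted higher and 2 lower. The shares over all genes were 7.4% and 6.17%. Snhg1 was at 111 FPKM in mock and at 1098 with BIX (3.29) and Snhg12 at 31 FPKM in mock and at 242 with BIX (2.93), whereas Snhg3 was at 97.9 FPKM in mock and at 85.7 with BIX (-0.19) and Snhg18 at 26.2 FPKM in mock and at 12.5 with BIX (-1.01). The ribosomal proteins themselves ranged from -0.29 (Rps28) to 0.53 (Rpl7l1).

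Of 22 counted p53 targets and regulators, 7 were higher and none was lower, against 7.4% and 6.17% of all genes. Cdkn1a (p21), which halts the cell cycle, was at 106 FPKM in mock and at 437 with BIX (2.04), Mdm2, the ligase that degrades p53, at 36.5 FPKM in mock and at 135 with BIX (1.86) and Eda2r, a death receptor, at 3.87 FPKM in mock and at 20.5 with BIX (2.14). Trp53 itself was at 131 FPKM in mock and at 250.3 with BIX (0.93). Others of the list were not higher: Ccng1 was at 53.2 FPKM in mock and at 36 with BIX (-0.55), Phlda3 at 73.8 FPKM in mock and at 43.5 with BIX (-0.75) and Sesn1 at 3.88 FPKM in mock and at 3.50 with BIX (-0.12). The stress sensors Gadd45a, Gadd45b and Gadd45g, a group chosen after values were seen, were at 14 and 132 FPKM (3.15), 9.57 and 95.6 FPKM (3.19) and 23.3 and 125 FPKM (2.37). In the BCL2 family, 2 of 11 were higher and none lower, few genes to set against 7.4% and 6.17% of all genes. Mcl1, a short-lived survival protein, was at 182 FPKM in mock and at 437 with BIX (1.26), and Bbc3 (PUMA), which promotes death, at 6.23 FPKM in mock and at 14 with BIX (1.05). Bcl2l1 (BCL-XL) and Bax were near-level, at 80.1 and 90.6 FPKM (0.17) and 137 and 179 FPKM (0.38).

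Cell cycle genes leaned lower at each stage. Of 21 genes of cell cycle entry, 5 were lower and 1, Cdkn1a, was higher, against 6.17% and 7.4% of all genes. Ccnd3 (cyclin D3) was at 83.7 FPKM in mock and at 27.2 with BIX (-1.58) and Ccne1 (cyclin E1) at 39.3 FPKM in mock and at 16.3 with BIX (-1.22), while Cdk4 was at 269 FPKM in mock and at 297 with BIX (0.14). E2f8 and E2f1 were at 40.4 and 13 FPKM (-1.57) and 31.2 and 15.3 FPKM (-0.98). The CDK inhibitors Cdkn2c and Cdkn2d were lower, at 51.3 and 21.4 FPKM (-1.22) and 26.5 and 7.89 FPKM (-1.63), and in the KO pair their ratios were 0.04 and -0.28.

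Of 42 genes of DNA replication, 38 were below 0 and 11 were 2-fold lower, with none higher, against 6.17% and 7.4% of all genes. The DNA polymerase delta subunits Pold1 and Pold2 were at 22.6 and 7.06 FPKM (-1.55) and 52.4 and 22.1 FPKM (-1.21), Rfc5, a clamp loader subunit, at 35.5 FPKM in mock and at 9.74 with BIX (-1.77) and Tk1, thymidine kinase, at 74.3 FPKM in mock and at 22.9 with BIX (-1.66). The helicase subunits differed among themselves: Mcm5 was at 49.9 FPKM in mock and at 22.9 with BIX (-1.09), Mcm2 at 52.8 FPKM in mock and at 31.5 with BIX (-0.73) and Mcm3 at 78.2 FPKM in mock and at 72.4 with BIX (-0.11). Pcna was at 247 FPKM in mock and at 195 with BIX (-0.34) and Gmnn (geminin) was the highest of the list, at 53.5 FPKM in mock and at 71 with BIX (0.40).

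All 36 mitosis genes were below 0, and 21 were 2-fold lower, against 6.17% of all genes. Of the kinetochore, Nuf2 and Ndc80 were at 36.6 and 11.5 FPKM (-1.59) and 37.1 and 11.9 FPKM (-1.56). Cyclin A2 (Ccna2) was at 128 FPKM in mock and at 51.6 with BIX (-1.30), Plk1 at 98.7 FPKM in mock and at 42.4 with BIX (-1.20) and Mki67, the proliferation marker, at 70.6 FPKM in mock and at 31.9 with BIX (-1.12). Near-level were Nek2, at 50.9 FPKM in mock and at 47.9 with BIX (-0.09), and Prc1, which bundles the spindle midzone, at 100.1 FPKM in mock and at 95.5 with BIX (-0.07). In the KO pair 8 of the 36 were 2-fold lower, against a share of 9.87% of all genes there, and the median was -0.58. Tubulin genes leaned lower, with 8 of 9 below 0 and Tuba1b at 492 FPKM in mock and at 228 with BIX (-1.11). Of the replication-dependent histone genes, 26 of 64 were counted, 8 of them through BIX alone; 3 were higher and 1 lower. Their mRNAs lack a poly(A) tail and the libraries were made by poly(A) selection, so these values do not give histone mRNA levels.

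The study asked about autophagy beside loss of H3K9 methylation, per its title. Of 53 autophagy genes 6 were higher and 1 was lower, with a median of 0.19; over all genes 7.4% were higher and 6.17% lower, so the share that was higher lies near that of all genes. Of the receptors that bring cargo to the autophagosome, Sqstm1 (p62) was at 199.8 FPKM in mock and at 834 with BIX (2.06), Bnip3, a mitochondrial receptor that is also a hypoxia gene, at 18.6 FPKM in mock and at 75.9 with BIX (1.97) and Fam134b, a receptor for the ER, at 16.7 FPKM in mock and at 34.4 with BIX (1.0). Of the conjugation system, Gabarapl1 was at 21.7 FPKM in mock and at 75.7 with BIX (1.76), Map1lc3b (LC3B) at 32.7 FPKM in mock and at 53.7 with BIX (0.70) and Atg4d, an LC3 protease, at 13.1 FPKM in mock and at 5.19 with BIX (-1.19). Of initiation, Atg101 and Atg14 were at 17.7 and 39 FPKM (1.10) and 1.88 and 5.05 FPKM (1.07), with Ulk1 at 7.18 FPKM in mock and at 6.40 with BIX (-0.14) and Becn1 at 36.9 FPKM in mock and at 26.2 with BIX (-0.48). The core enzymes Atg5 and Atg7 were level, at 13.1 and 13.4 FPKM (0.03) and 6.29 and 6.43 FPKM (0.03).

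Of 70 lysosomal genes, 4 were higher and 3 lower, which is no more than the 7.4% and 6.17% of all genes. Of 16 subunits of the V-ATPase, the proton pump, 14 were above 0 and 3 were 2-fold higher, namely Atp6v1h at 39 FPKM in mock and at 95 with BIX (1.26), Atp6v0b at 148 FPKM in mock and at 314 with BIX (1.08) and Atp6v1b2 at 54.3 FPKM in mock and at 111 with BIX (1.02). Of 35 hydrolases 10 were above 0, none was 2-fold higher and 2 were lower, Naglu at 12 FPKM in mock and at 4.21 with BIX (-1.31) and Sgsh at 4.29 FPKM in mock and at 1.54 with BIX (-1.06), both enzymes of heparan sulphate breakdown. Cathepsins B and D (Ctsb and Ctsd) were at 173 and 246 FPKM (0.51) and 303 and 363 FPKM (0.26). Fnip1, a partner of folliculin at the lysosome surface, was at 13.7 FPKM in mock and at 30.9 with BIX (1.12), and Tfeb, a factor of lysosome genes, at 15.1 FPKM in mock and at 5.59 with BIX (-1.28).

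None of 24 counted sterol synthesis genes was called, with Mvk, mevalonate kinase, at 15.2 FPKM in mock and at 7.10 with BIX (-1.0), just under 2-fold. In fatty acid synthesis 2 of 14 were lower, Srebf1, its transcription factor, at 84.6 FPKM in mock and at 19.2 with BIX (-2.09) and the joined entry Mir5114,Scd2, which includes a fatty acid desaturase, at 154 FPKM in mock and at 73.4 with BIX (-1.06), while Fasn was level at 93 FPKM in mock and at 95.3 with BIX (0.03). Of 6 genes of cholesterol efflux 5 were below 0, Abca1 among them, and Abcg1 was at 3.53 FPKM in mock and at 1.34 with BIX (-0.95).

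Hypoxia and glycolysis genes were slightly higher, with 22 of 25 above 0 and a median of 0.31. Of the 25, 3 were 2-fold higher and none was lower, against 7.4% and 6.17% of all genes. In the KO pair the median was 0.07 over the genes counted and -0.03 over all entries. There 1 of 24 was higher, against 13% of all genes. Ndrg1 was at 25.7 FPKM in mock and at 151 with BIX (2.51), Slc2a1 (GLUT1), the glucose importer, at 59.4 FPKM in mock and at 140.2 with BIX (1.23) and Vegfa at 84.9 FPKM in mock and at 150.1 with BIX (0.81). Enzymes such as Pgk1 and Ldha were at 389 and 608 FPKM (0.64) and 730.3 and 999 FPKM (0.45). Egln3, a target of HIF, was not higher, at 106 FPKM in mock and at 98.5 with BIX (-0.11). Of the respiratory chain list, 62 of 89 were below 0, 4 were lower and 1 was higher, against 6.17% and 7.4% of all genes. The 1 that was higher was Ndufa4l2, itself a hypoxia gene, at 31.6 FPKM in mock and at 70.5 with BIX (1.14). Of 15 counted circadian genes 2 were higher, against 7.4% of all genes. These were the paired repressors Nr1d1 and Nr1d2, at 28.6 and 109 FPKM (1.90) and 16.7 and 45.3 FPKM (1.39). Dbp was at 7.58 FPKM in mock and at 3.86 with BIX (-0.82).

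Collagens leaned lower: 14 of 19 counted were below 0, with 3 lower and 1 higher, against 6.17% and 7.4% of all genes. Col6a1 and Col6a2, chains of type VI collagen, were at 82 and 26.9 FPKM (-1.57) and 42.6 and 18.3 FPKM (-1.18), and Col1a1 at 40.9 FPKM in mock and at 21.4 with BIX (-0.90). Col4a1, of the basement membrane, was at 96.6 FPKM in mock and at 135 with BIX (0.48). Of 19 other matrix genes 2 were higher, among them Plaur, the urokinase receptor, at 85.3 FPKM in mock and at 187 with BIX (1.12), and 1 was lower, Mmp14, a membrane-bound matrix protease, at 90.3 FPKM in mock and at 37.1 with BIX (-1.26). Of 10 contractile genes and targets of YAP, 1 was higher, Ankrd1 at 43.2 FPKM in mock and at 213 with BIX (2.27), and 1 was lower, Cnn2 (calponin 2) at 169.9 FPKM in mock and at 80.7 with BIX (-1.07). The WT and KO lines differed in matrix genes before treatment, with Fn1 (fibronectin) at 18.6 FPKM in WT mock and 348 in KO mock and Col1a2 at 49.4 and 486.

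Among genes of H3K9 methylation, 3 of 27 were higher and 1 was lower, few genes that lie near the shares over all genes (7.4% and 6.17%). Ehmt2, a target of BIX, was at 67.3 FPKM in mock and at 31.1 with BIX (-1.09), and Ehmt1 was at 12.7 FPKM in mock and at 10.5 with BIX (-0.25). Suv39h1 and Setdb1, which trimethylate the same residue, were at 30.7 and 22.8 FPKM (-0.41) and 21.6 and 22.9 FPKM (0.08). The 3 that were higher all encode demethylases or members of their family: Kdm3a was at 11.4 FPKM in mock and at 26.6 with BIX (1.15), Jmjd1c at 8.74 FPKM in mock and at 20.7 with BIX (1.15) and Kdm7a at 1.23 FPKM in mock and at 3.72 with BIX (1.08). All 10 counted erasers were above 0, the lowest being Phf2 at 18.3 FPKM in mock and at 18.4 with BIX (0.0). Cbx3, an HP1 protein that reads the mark, was at 309 FPKM in mock and at 188 with BIX (-0.71). Of 6 counted genes of DNA methylation, Uhrf1, which recruits Dnmt1 to new DNA, was at 73.8 FPKM in mock and at 21.6 with BIX (-1.73) and Dnmt1 at 68.7 FPKM in mock and at 36.9 with BIX (-0.88).

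Germline genes, which such marks are known to keep silent, mostly stayed near 0. Of 29 germline genes, 28 stayed under 1 FPKM in both libraries, 14 of them listed at 0 in both, and Piwil2, of the piRNA pathway, was at 0.0930 FPKM in mock and at 3.29 with BIX (1.97). Of 7 matched genes derived from endogenous retroviruses 3 were counted, none was higher, and Fv1, a capsid-derived restriction gene, was lower, at 4.77 FPKM in mock and at 1.57 with BIX (-1.17). Of 257 counted zinc finger genes of the Zfp and related names, 16 were higher and 7 lower, with a median of 0.11, both shares below those of all genes (7.4% and 6.17%); 14 had passed through BIX alone. Zfp655 was at 23.1 FPKM in mock and at 80.1 with BIX (1.75), Zfp703 at 15.3 FPKM in mock and at 44.4 with BIX (1.48) and Zfp41 at 6.40 FPKM in mock and at 1.13 with BIX (-1.80), and Zfp36, also on this list by name, binds RNA.

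The cGAS KO pair shares no library with the WT pair and shows which differences recurred in a second pair. There 1479 of 11377 genes were higher with BIX (13%) and 1123 lower (9.87%). Of the 820 genes higher in WT, 590 (72.0%) were also higher in KO, which is 39.9% of those higher in KO. Of the 683 lower in WT, 425 (62.2%) were also lower in KO, which is 37.8% of those lower in KO. Over the 10745 genes counted in both, Pearson's r of the 2 log2 ratios was 0.82 across genes, which are not independent replicates. The KO pair had equal reads (1.00), whereas the WT pair did not (0.747), and the part of that gap in the results was not tested. Since each genotype has 1 mock and 1 BIX library, the difference between the genotypes could not be tested.

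Immediate early genes had a median of 1.64 in WT and, over those counted in KO, 2.07. Csrnp1, an early response factor, was at 4.52 FPKM in mock and at 76.8 with BIX (3.82) in WT and at 3.06 and 97 FPKM in KO, and Ier3, a survival gene, at 64.9 FPKM in mock and at 725 with BIX (3.46) in WT and at 19 and 238 in KO. Medians of WT and KO, each over the genes counted in its own pair, lay close for ribosome biogenesis (0.62 and 0.49), p53 targets (0.48 and 0.43) and metallothioneins and zinc export (1.13 and 1.05). Among those of the 49 lists with more than 5 genes counted in both pairs, they lay furthest apart for replication-dependent histones (0.45 and 1.20), tubulins (-0.63 and -1.28) and interferon-stimulated genes (1.10 and 0.52, with 40 of 71 and 17 of 58 higher). Circadian genes (0.28 and 0.77), mitosis (-1.06 and -0.58), ER folding (-0.83 and -0.38), immediate early genes and NRF2 targets (0.39 and -0.02) came next. This order depends on the FPKM minimum. Over all entries of a list, the histone medians were 0 and 0.38, closer together than those of the next lists. They were -0.52 and -1.19 for tubulins, 0.73 and 0.10 for interferon-stimulated genes and 0.22 and 0.77 for circadian genes.

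**Figure D5:**
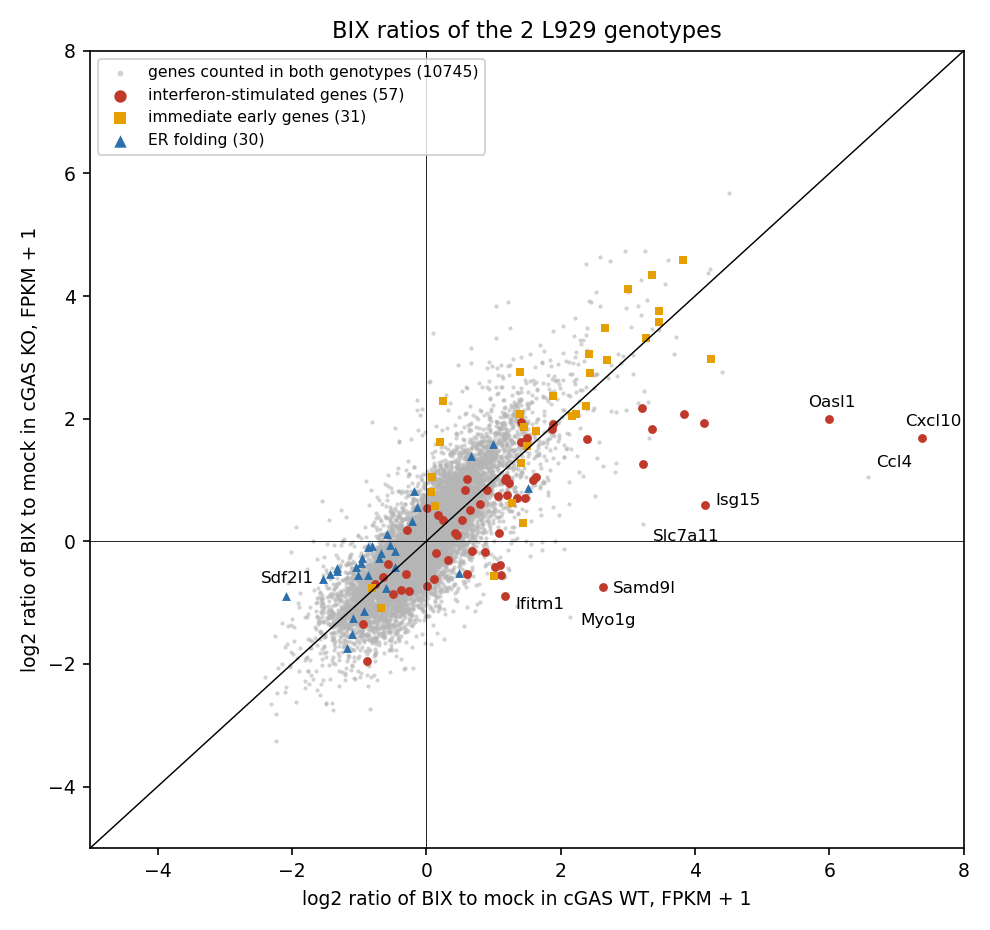
Log2 ratio of BIX to mock in cGAS WT (x axis) and in cGAS KO (y axis) for the 10745 genes counted in both (grey), with interferon-stimulated genes (circles), immediate early genes (squares) and ER folding genes (triangles); the diagonal marks equal ratios. Most points follow the diagonal, and a set of interferon genes with Cxcl10, Oasl1, Isg15 and the chemokine gene Ccl4 lies far to its right.

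Of the 820 genes, 20 had a KO ratio lower than the WT ratio by 2 or more on the log2 scale, and 14 of these are on the interferon list. Among all 820, 40 are on that list. Genes with large WT ratios reach such a gap more readily, and the interferon list holds many of the largest. In the BIX libraries, Ccl5 was at 215 FPKM in WT and 0.967 in KO, Ifit1 at 67.5 and 0.106, and Rsad2 at 64.9 and 0.218. Ifna4 and Ifna1 were listed at 0 in both KO libraries, as was Ifit3b. Another interferon alpha gene, Ifnab, was listed at 0 in KO mock and was at 5.06 FPKM in KO BIX, against 0.240 in WT BIX. The KO BIX library was not devoid of these genes, with Apol9a at 51.6 FPKM against 53.5 in WT BIX, Irf9 at 23.1 against 20.3 and Ifit2 at 20.4 against 39. Samd9l, an antiviral factor, and Ifitm1 were at 17.1 and 1.66 FPKM in WT BIX, and in KO at 5.0 and 2.59 FPKM and 9.71 and 4.76 FPKM in mock and BIX. Their mock levels differed between the genotypes, at 1.93 and 0.177 in WT. The other 6 genes are Ccl4 (0.550 and 147 FPKM in WT, 0 and 1.07 in KO), Sprr1a, Slc7a11, Fam107b, Myo1g and Naprt. Slc7a11 was at 7.19 and 8.96 FPKM in KO. Fam107b was at 4.99 FPKM in mock and at 23.9 with BIX (2.06) in WT and at 4.83 and 4.32 in KO.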

How the data were processed

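Poly(A)-selected RNA of 4 L929 libraries was used, 2 of them for the comparison itself. Per the submitters' processing notes, FastQC, cutadapt, TopHat2 and Cufflinks were used with mm10 (GRCm38); no source used here gives versions, options, annotation or strandedness. The authors deposited FPKM per gene and library, without counts, so depth is known only as relative reads. Of 23849 symbols (the entry with the highest mean FPKM was kept of symbols listed more than once), 1122 short RNA genes were left out, and 201 of the loci counted join several symbols. Ratios are log2((BIX FPKM + 1)/(mock FPKM + 1)), for genes that reached FPKM 1 in either library, counted at 2-fold, with Python 3.11.15, pandas 2.3.3 and numpy 2.4.6. The script was tested on simulated data. No test across samples was possible with 1 library per group. Genes named are the 25 largest ratios in each direction at FPKM of at least 5, members of 49 lists, and Mb21d1, Ehmt1 and Ehmt2. A few further genes and 4 lists (Snhg, chemokine ligand, interferon alpha and Gadd45 genes) were chosen after their values were seen. The genes and lists were all chosen with earlier results of these data known. The markers of epithelial, endothelial, muscle and neural cells, not taken up in the results, summed to 0.441, 0.192, 8.39 and 0.171 FPKM in mock and 1.29, 0.811, 4.94 and 0.617 with BIX. Alternatives covered the pseudocount, the FPKM minimum, scaling and the handling of joined, repeated and short RNA entries. Sequences are not shown, and a few listed genes are not reported here.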

Additional observations from a re-analysis of the deposited data

Results flagged for a closer look

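Among the genes counted in both genotypes, 2 lay 2-fold or more apart in opposite directions. Myo1g, a myosin of blood cells, was at 0.0563 FPKM in WT mock and 3.66 in WT BIX (log2 ratio 2.14), and at 5.39 in KO mock and 1.73 in KO BIX (-1.23). Naprt, an enzyme of NAD synthesis from nicotinic acid, was at 0.309 and 2.34 FPKM in WT (1.35) and at 4.99 and 1.88 in KO (-1.06). Each value is a single library, and the difference between the genotypes was not tested. Both genes were under 1 FPKM in WT mock and higher in KO mock, and both stayed under 5 FPKM in the WT libraries.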

How the results depend on the processing

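With 1 library per group, no replicate could be left out. No paired analysis was possible because each group has 1 library and the labels give no shared replicate numbers. With a pseudocount of 0.1 in place of 1, the genes 2-fold higher and lower were 1086 and 1066 in place of 820 and 683, the zinc finger genes higher were 27 in place of 16, the genes lower in both genotypes were 695 in place of 425, and those in opposite directions were 15 in place of 2. With an FPKM minimum of 5, 0 genes lay in opposite directions, and 583 genes were higher and 590 lower. With each column scaled to the same sum (as in TPM), 996 were higher and 1097 lower, and 8 in place of 5 genes of cell cycle entry were lower; this scaling raises all values, so that the same pseudocount and minimum weigh less and 11753 genes were counted. The median of the germline list was -0.39 under that scaling, against 1.97 for 1 counted gene. With no minimum the median of the matrix list was 0.0071 against -0.44. Centring on the median moved all ratios by 0.04, with 888 higher and 606 lower. Beside the germline and matrix medians, list medians moved by 0.25 or more in 15 lists with no minimum, 9 with the smaller pseudocount, 8 with the higher minimum and 4 when scaled. Of 293 genes named or listed that lay 2-fold apart, 10 fell short of 2-fold when centred, 9 when scaled and none with the smaller pseudocount. Low genes rest on few reads, which FPKM does not show, and the WT BIX library had fewer reads than mock.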
